A study of Mus musculus with 6 samples.

Results

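This report concerns 42 mouse genes of ribosome biogenesis and RNA polymerase I, listed by symbol, in B-lineage acute lymphoblastic leukaemia (B-ALL) treated in culture with dihydroartemisinin (DHA). A gene was taken from the probe sets that the platform annotation pairs with that symbol alone, and the brightest by its mean over all arrays stood for it. By this rule 40 of the 42 were measured, out of 15526 genes tested, and all 40 passed the filter on dim genes. Fbl and Tsr1 lie only on probe sets shared with another gene and were left out. The tested group was cells given 312 nM DHA, an artemisinin-type antimalarial, for 4 h (3 arrays). Its vehicle group was cells given dimethyl sulphoxide (DMSO) for 4 h (3 arrays). Both groups were mouse cells carrying the BCR-ABL oncogene, and the series title concerns repression of MCL-1 and sensitivity to navitoclax. The growth protocol names p185 or p185 T315I cells and Arf-/- or p53-/- backgrounds, without saying which of these was on the arrays. The extraction protocol also names 2 h, whereas the treatment protocol gives 4 h alone. The labels do not state whether replicates were grown as separate cultures. The p-values therefore reflect only variation among these 6 arrays, and that variation may be technical.

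Ribosomes are built in the nucleolus, where RNA polymerase I copies the ribosomal DNA into a long precursor RNA. Small nucleolar ribonucleoproteins (snoRNPs) modify that RNA, and successive assembly factors cut it, fold it and load it with ribosomal proteins to give the small (40S) and large (60S) subunits. The programme is a known output of MYC and of mTORC1 signalling, is high in growing B-lineage leukaemia cells, and, when disturbed, can release ribosomal proteins that stabilise p53. The arrays measured the messenger RNAs of these factors and not ribosomal RNA synthesis itself.

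The values were log2 intensities. Array medians lay between 5.25 and 5.31, and Pearson correlations between arrays ran from 0.9925 to 0.9947. B-lineage identity was checked with marker genes. Cd79a, a B-cell receptor signalling chain, averaged 12.72 with DHA and 12.70 with DMSO, and its partner Cd79b 12.63 in both groups. The surrogate light chain genes Vpreb1 and Vpreb2 averaged 4.79 and 8.53 with DHA, against 4.78 and 8.54 with DMSO, so Vpreb1 lay near the filter value of 4.52. Of all 15 B-cell precursor markers measured, 0 were called with limma, and 8 (53.3%) had a log2 fold change above 0, against 51.4% of all genes. At an unadjusted p under 0.05, 0 were higher with DHA, against 5.94% of all genes. At the same threshold 3 (20%) were lower, against 6.08% of all genes, each with separate groups. They were Rag2, a recombinase gene, at 7.19 with DHA and 7.72 with DMSO, Cd24a at 12.56 with DHA and 12.72 with DMSO, and the surrogate light chain gene Igll1 at 12.92 with DHA and 13.04 with DMSO. The groups were also separate for Ebf1, which was higher with DHA, at 11.83 against 11.70 with DMSO. Separate groups were thus seen in 4 of the 15 (26.7%), against 15.8% of all genes. Summed over the 15, log2 levels ran from 153.7 to 154.6 with DHA and from 154.3 to 155.5 with DMSO. Of the markers of other cell types, 4 of 10 T and NK cell, 6 of 10 myeloid, 3 of 4 erythroid and megakaryocyte and 8 of 8 stromal and endothelial genes lay above the filter. None of these 21 was called changed, and 3 had an unadjusted p under 0.05, as did 12% of all genes. All 3 were higher with DHA, as were 5.94% of all genes at that threshold. They were 1 T and NK cell gene and 2 stromal and endothelial genes. Summed over each list, their log2 levels ran from 44.1 to 45.1 with DHA and 44.1 to 44.7 with DMSO for T and NK cells, and from 45.4 to 45.7 with DHA and 44.7 to 46.0 with DMSO for myeloid cells. The sums were 19.9 to 20.04 with DHA and 19.6 to 19.7 with DMSO for erythroid and megakaryocyte markers. For stromal and endothelial markers they were 47.032 to 47.6 with DHA and 46.9 to 47.029 with DMSO. In these last 2 lists every DHA sum lay above every DMSO sum, by a very small margin in the stromal and endothelial list. The part of these markers in the results was not tested.

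No ribosome biogenesis gene was called changed after 4 h of DHA, and the fold changes that were measured were small. The test was limma over all genes, called at 0.05 or less after Benjamini-Hochberg adjustment. It called 0 of 40 members, and 14 of all 15526 genes (0.0902%). By direction it called 0 members higher, against 0.0837% of all genes, and 0 lower, against 0.00644%. The lowest adjusted p of a member was 0.218, that of Nop10. At an unadjusted p under 0.05 there were 6 members, 2 higher and 4 lower with DHA, which is 15.0% against 12% of all genes. By direction this was 2 of 40 against 5.94% of all genes higher, and 4 of 40 against 6.08% lower. The 3 DHA and 3 DMSO values did not overlap in 7 members, 2 higher and 5 lower with DHA, which is 17.5% against 15.8% of all genes. Of all genes, 7.64% were separate and higher and 8.19% separate and lower. These shares lay near those of all genes. Of bulk values it also holds that fewer cells of a type and less RNA per cell cannot be told apart.

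The intervals gave the range of fold changes compatible with the scatter among these 6 arrays. Log2 fold changes ran from -0.26 for Nop10 to 0.27 for Nop14, with a median of -0.028 against 0.0027 for all genes. The median standard error (SE) was 0.063 for the members and 0.068 for all genes. The 95% interval lay inside a 1.5-fold change in either direction for all 40 members, against 96.8% of all genes. It lay between a 20% decrease and a 25% increase for 34 of 40, against 73.2% of all genes. The 6 outside it were Nop14, Nop10, Nop16, Rrp1b, Gar1 and Ppan. These intervals are not adjusted for the number of genes. The scatter behind them may be technical, so they do not bound a change across separate cultures.

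**Figure D1:**
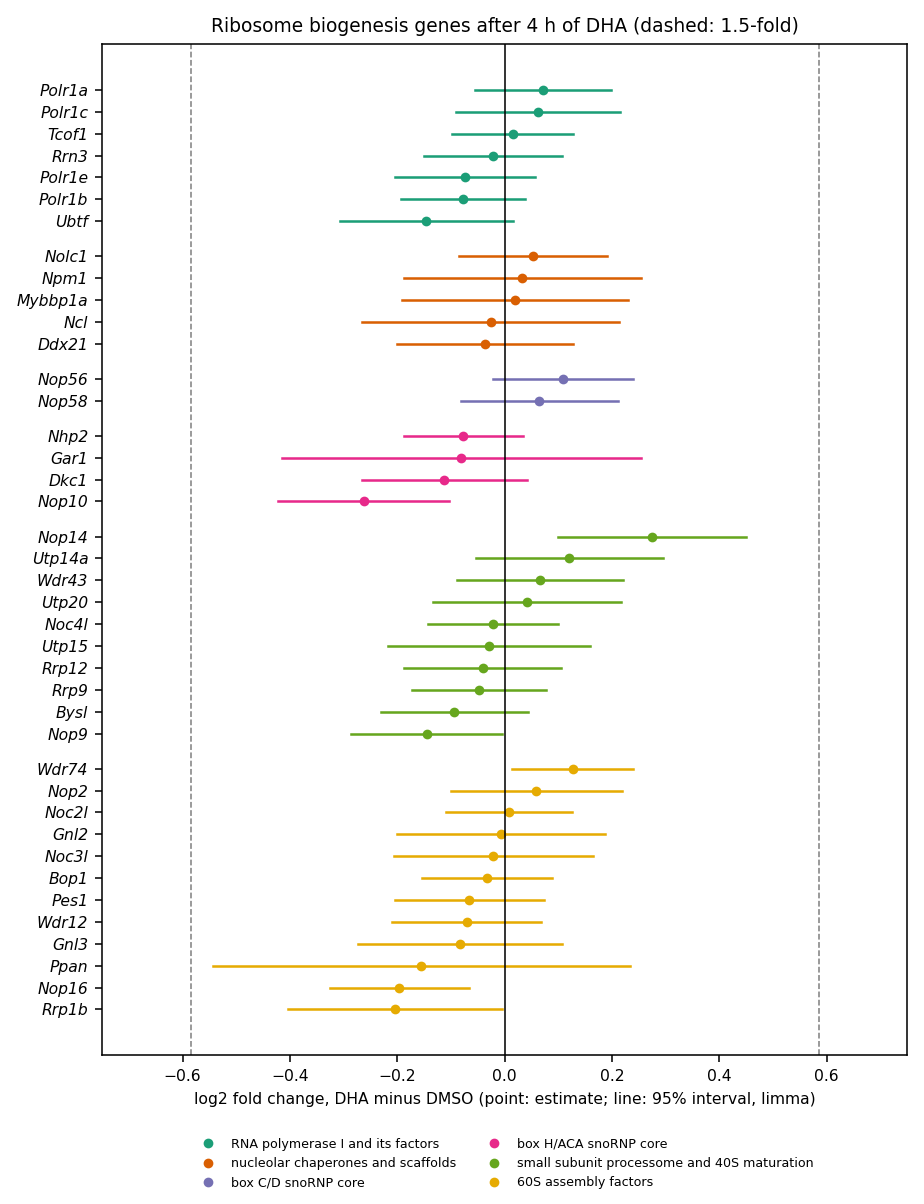
Log2 fold change of each of the 40 ribosome biogenesis genes, DHA minus DMSO, by role, with the limma estimate as a point and its 95% interval as a line. Every interval lies between the dashed lines that mark a 1.5-fold change, and the intervals of 6 genes do not reach 0.

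The cumulative plot of fold changes sets the members beside all genes. Of the 40, 15 had a log2 fold change above 0 and 25 below, so 37.5% were above 0 against 51.4% of all genes. Without DMSO replicate 2, 25 members were above 0 and 15 below, and the median was 0.020. The members stood highest on that array, so leaving it out raises DHA minus DMSO on average by construction. Without DHA replicate 3, the highest of its group, 10 were above 0 and 30 below. Without DHA replicate 1 or 2, 18 were above and 22 below. Without DMSO replicate 1 there were 13 above and 27 below, and without DMSO replicate 3, 11 above and 29 below.

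**Figure D2:**
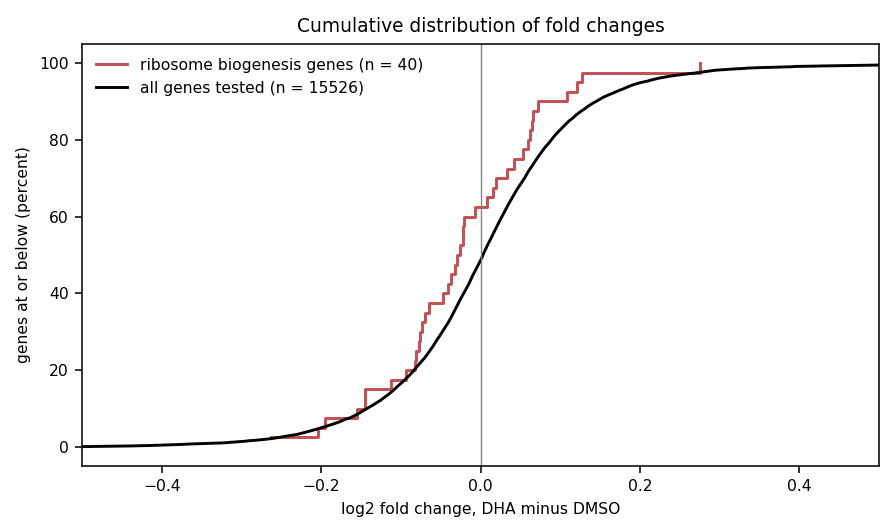
Percentage of genes at or below each log2 fold change, DHA minus DMSO, for the 40 ribosome biogenesis genes (red steps) and all 15526 genes tested (black line). The red steps lie left of the black line around 0 and the members span -0.26 to 0.27.

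RNA polymerase I and its factors showed no member past the test in either direction, and no member at an unadjusted p under 0.05. Their median log2 fold change was -0.022 over 7 genes. Ubtf encodes UBF, which binds along active ribosomal DNA and bends it for transcription. It measured 10.13, 10.06 and 10.24 with DHA, against 10.28, 10.38 and 10.21 with DMSO, on the log2 scale. DHA replicate 3 lay above DMSO replicate 3, so the groups overlapped. DHA minus DMSO gave -0.15 (SE 0.068, 95% interval -0.31 to 0.016, limma adjusted p = 0.462; exact two-sided permutation p = 0.2, n = 3 per group). Rrn3, which encodes the initiation factor TIF-IA that brings the polymerase to the promoter and is a known target of growth signalling, averaged 9.55 ± 0.024 with DHA and 9.57 ± 0.077 with DMSO (SD, n = 3 each). Its interval, -0.15 to 0.11, lay on both sides of 0.

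The subunits of the polymerase moved in both directions by small amounts. Polr1a, the largest catalytic subunit, had a log2 fold change of 0.072 (95% interval -0.055 to 0.20), and Polr1b, the other catalytic subunit, -0.078 (95% interval -0.19 to 0.037). Polr1c, which RNA polymerase III also uses, had 0.062 and Polr1e, a subunit that helps to bind initiation factors, -0.074. Tcof1, which encodes the nucleolar phosphoprotein treacle, had 0.015. None of these 5 passed the test (limma adjusted p from 0.568 to 0.925).

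None of the nucleolar chaperones and scaffolds passed the test, and Npm1 and Ncl varied more among DMSO arrays than between groups. Npm1 encodes nucleophosmin, a histone and ribosome chaperone. It measured 12.12, 12.05 and 12.06 with DHA, against 11.94, 12.26 and 11.94 with DMSO. The 3 DHA values lay between the lower DMSO pair and DMSO replicate 2. DHA minus DMSO gave 0.033 (95% interval -0.19 to 0.25, limma adjusted p = 0.915; exact two-sided permutation p = 1, n = 3 per group). Ncl, which encodes the RNA-binding protein nucleolin, measured 11.77, 11.73 and 11.90 with DHA, against 11.72, 12.04 and 11.71 with DMSO. DMSO replicate 2 was again the highest of the 6, and the log2 fold change was -0.026 (SE 0.10).

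Nolc1, a chaperone of snoRNPs, had the smallest p of this role group. Its values were 9.12, 9.17 and 9.29 with DHA, against 9.16, 9.15 and 9.10 with DMSO, and the groups overlapped (log2 fold change 0.053, limma adjusted p = 0.752; exact two-sided permutation p = 0.4, n = 3 per group). The RNA helicase gene Ddx21 had -0.037 and Mybbp1a, which encodes a nucleolar MYB-binding protein, 0.019. The role group as a whole had a median of 0.019 over 5 genes, with 0 at an unadjusted p under 0.05.

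**Figure D3:**
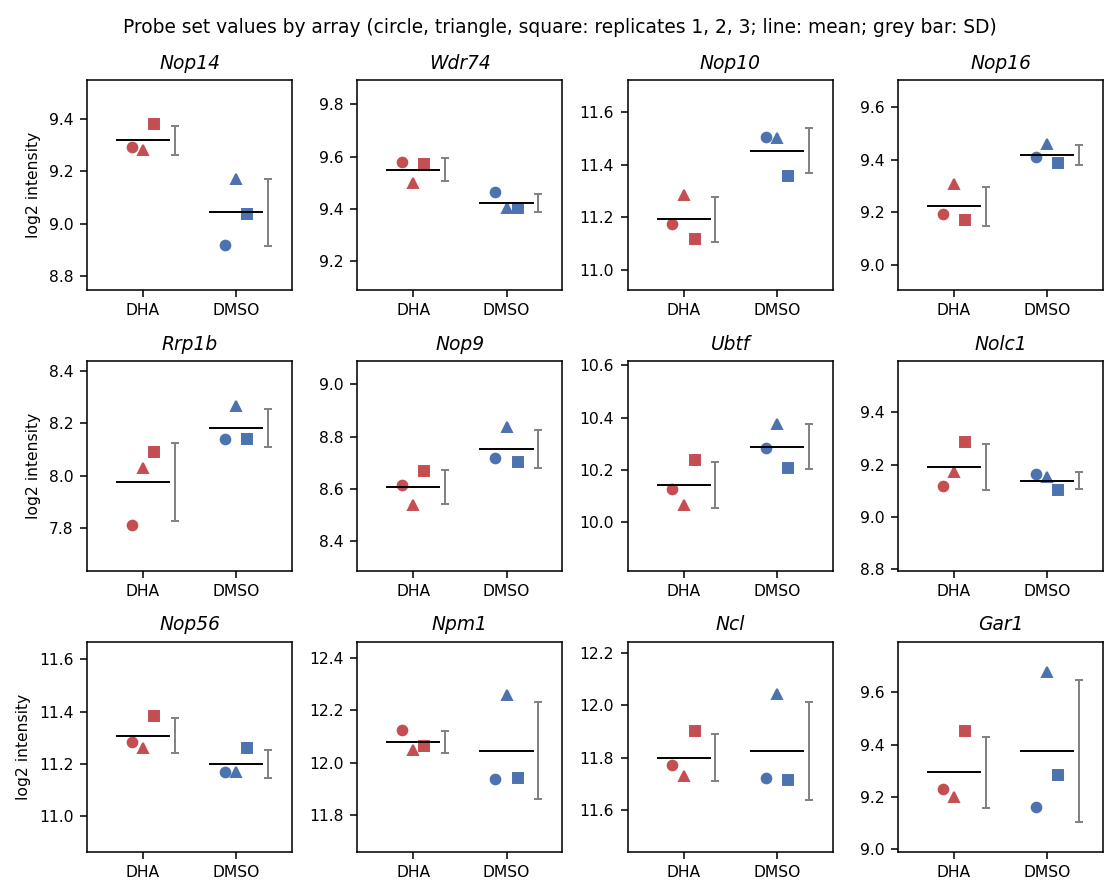
Log2 intensity on each array for 12 ribosome biogenesis genes, DHA left and DMSO right, with the mean as a line and the SD as a grey bar; each panel spans 0.8 log2 units. Nop14 and Wdr74 lay higher with DHA and Nop10, Nop16, Rrp1b and Nop9 lower, each without overlap, and DMSO replicate 2 (triangle) was the highest array for Npm1, Ncl and Gar1.

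None of the 4 H/ACA snoRNP genes passed the test. All 4 log2 fold changes were below 0, where 51.4% of all genes were above 0. The groups were separate for Nop10 and Nhp2 and overlapped for Dkc1 and Gar1. Of all genes, 8.19% were separate and lower, and a list of 4 genes is too short to set firmly against that share. The H/ACA complex converts uridine to pseudouridine in ribosomal RNA and also holds telomerase RNA. Nop10, its smallest protein, measured 11.17, 11.29 and 11.12 with DHA, against 11.51, 11.50 and 11.36 with DMSO. Every DHA array lay below every DMSO array. DHA minus DMSO gave -0.26 (SE 0.067, 95% interval -0.42 to -0.10), a ratio of 0.834, and the limma adjusted p was 0.218 (unadjusted p = 0.00613; exact two-sided permutation p = 0.1, the smallest that 3 against 3 allows).

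Nhp2, another core protein of the complex, averaged 9.85 ± 0.020 with DHA and 9.93 ± 0.048 with DMSO, without overlap (SD, n = 3 each; log2 fold change -0.077, limma adjusted p = 0.558). Dkc1, the pseudouridine synthase itself, had -0.11 (SE 0.064, limma adjusted p = 0.539). Gar1 had the widest spread of the complex, at 9.23, 9.20 and 9.45 with DHA, against 9.16, 9.68 and 9.28 with DMSO. Without DMSO replicate 2 its log2 fold change was 0.072 in place of -0.081. The median of the 4 genes was -0.096, and it was -0.16 without DMSO replicate 1 and negative on leaving out any other array.

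The C/D snoRNP guides methylation of ribosomal RNA, and its core genes Nop56 and Nop58 were the only role group with all measured members above 0. Nop56 measured 11.28, 11.26 and 11.38 with DHA, against 11.17, 11.17 and 11.26 with DMSO. DHA replicate 2 and DMSO replicate 3 coincided to 2 decimals, so the groups touched. DHA minus DMSO gave 0.11 (95% interval -0.022 to 0.24, limma adjusted p = 0.496; exact two-sided permutation p = 0.2, n = 3 per group). The sign did not hold for the dimmer Nop56 probe sets, which gave -0.045 and -0.13. Nop58 had a log2 fold change of 0.065 (SE 0.061). Fbl, the methyltransferase of this complex, was not measured by the rule.

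Genes of the small subunit processome and of 40S maturation held the largest positive value. Nop14, known from yeast as a partner of Noc4 in processome assembly, measured 9.29, 9.28 and 9.38 with DHA, against 8.92, 9.17 and 9.04 with DMSO. The groups did not overlap. DHA minus DMSO gave 0.27 (SE 0.073, 95% interval 0.10 to 0.45), a ratio of 1.21, with a limma adjusted p of 0.238 (unadjusted p = 0.00771; exact two-sided permutation p = 0.1, the smallest possible). Noc4l, the mouse counterpart of that partner, had -0.022 (95% interval -0.14 to 0.099).

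Nop9, a Pumilio-like RNA-binding protein needed for 40S biogenesis in yeast, measured 8.62, 8.54 and 8.67 with DHA, against 8.72, 8.84 and 8.70 with DMSO. It lay lower on every DHA array, by -0.14 on the log2 scale (SE 0.059, limma adjusted p = 0.404). The groups were thus separate in 2 of the 10 genes (20%, against 15.8% of all genes) and overlapped in the other 8. They were Utp14a (0.12), the processome member Wdr43 (0.066), Utp20 (0.042), Utp15 (-0.030), Rrp12 (-0.040), the U3 snoRNP protein gene Rrp9 (-0.048), Bysl (-0.094), which encodes the counterpart of yeast Enp1, and Noc4l above. Rrp12, known in yeast for export of pre-ribosomes, measured 7.75, 7.76 and 7.87 with DHA, against 7.77, 7.93 and 7.80 with DMSO. Its groups overlapped (limma adjusted p = 0.830; exact two-sided permutation p = 0.5, n = 3 per group). The median of the 10 genes was -0.026, and 0.029 without DMSO replicate 2.

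The promoters of the pair with the largest differences are shown, from 250 bases before to 50 after the start, as RefSeq gives them for GRCm38.p6. Capitals mark matches on either strand to the E-box (CACGTG), the ETS core (CCGGAA), the GC box (GGGCGG) or the TATA box (TATAAA). The Nop14 promoter lies at chr5:34660099-34660398 on the minus strand and the Nop10 promoter at chr2:112261676-112261975 on the plus strand.
Nop14: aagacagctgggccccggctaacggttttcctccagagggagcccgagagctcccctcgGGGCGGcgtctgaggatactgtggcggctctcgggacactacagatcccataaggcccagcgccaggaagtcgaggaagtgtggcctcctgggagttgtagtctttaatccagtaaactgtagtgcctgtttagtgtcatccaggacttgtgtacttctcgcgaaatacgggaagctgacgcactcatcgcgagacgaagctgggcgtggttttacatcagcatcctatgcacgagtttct
Nop10: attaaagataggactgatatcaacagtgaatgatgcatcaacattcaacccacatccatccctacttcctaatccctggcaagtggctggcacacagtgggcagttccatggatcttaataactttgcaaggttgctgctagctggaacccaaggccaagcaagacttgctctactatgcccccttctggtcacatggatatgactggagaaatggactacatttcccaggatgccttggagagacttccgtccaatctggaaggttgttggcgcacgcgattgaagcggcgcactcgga
The Nop10 promoter held none of the 4 motifs, and these letters alone say nothing of a factor.

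Large subunit (60S) assembly genes centred on -0.049, the median log2 fold change of 12 genes. Of these, 3 were above 0 (25%, against 51.4% of all genes) and 9 below. Separate groups were seen in 3 (25%, against 15.8% of all genes), 1 higher and 2 lower. The same 3 were at an unadjusted p under 0.05 (25%, against 12% of all genes). A list of 12 genes is too short to set firmly against those shares. Nop16, a nucleolar protein that yeast uses in 60S assembly, measured 9.19, 9.31 and 9.17 with DHA, against 9.41, 9.46 and 9.39 with DMSO. All DHA values lay below all DMSO values. DHA minus DMSO gave -0.20 (SE 0.054, 95% interval -0.33 to -0.066), with a limma adjusted p of 0.248 (unadjusted p = 0.00922; exact two-sided permutation p = 0.1, the smallest possible).

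Rrp1b, which encodes a nucleolar regulator of protein phosphatase 1, measured 7.81, 8.03 and 8.09 with DHA, against 8.14, 8.26 and 8.14 with DMSO. DHA replicate 1 was the lowest of the 6, and without it the log2 fold change was -0.12 in place of -0.20 (limma adjusted p = 0.404 with all arrays). Wdr74, a WD-repeat protein of 60S maturation, lay on the other side, at 9.58, 9.50 and 9.57 with DHA, against 9.46, 9.41 and 9.40 with DMSO. The groups were separate by a small margin (log2 fold change 0.13, SE 0.047, limma adjusted p = 0.363).

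Pes1, Bop1 and Wdr12, which form the PeBoW complex of 60S processing, had log2 fold changes of -0.065, -0.032 and -0.070, each with overlapping groups. The GTPase genes Gnl2 and Gnl3 (nucleostemin) had -0.0069 and -0.082. Noc2l and Noc3l, counterparts of a yeast pair that accompanies pre-60S particles, had 0.0080 and -0.021, and the ribosomal RNA methyltransferase gene Nop2 had 0.059. Ppan, an assembly factor related to yeast Ssf1, had the widest interval of all members, -0.54 to 0.23. It measured 9.85, 10.25 and 9.96 with DHA, against 10.25, 9.86 and 10.42 with DMSO, so each group held both high and low arrays. Its other probe set had a log2 fold change of -0.052.

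The members varied together by array. Averaged over the 40, the log2 level was 9.75 ± 0.039 with DHA and 9.77 ± 0.057 with DMSO (SD, n = 3 each), a difference inside the spread of either group. The mean deviation from each gene's own mean over 6 arrays was -0.041, -0.028 and 0.031 on DHA replicates 1, 2 and 3, and -0.021, 0.078 and -0.020 on DMSO replicates 1, 2 and 3. DMSO replicate 2 stood highest and DHA replicate 1 lowest. Over all genes tested the same measure stayed between -0.0050 and 0.0063 on every array. The processing named for these arrays commonly equalises them, which holds a mean over all genes near 0. That range is therefore no yardstick for a mean over 40 genes, and other lists of 40 genes were not compared.

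DHA replicate 3 was the highest of its group for 25 of 40 members (62.5%), against 34.6% of all genes. DMSO replicate 2 was the highest of its group for 28 of 40 (70.0%), against 34.5% of all genes. The deviation on DMSO replicate 2 was 0.16 for H/ACA genes, 0.13 for nucleolar chaperones and scaffolds, 0.077 for processome and 40S genes, 0.061 for 60S genes, 0.049 for RNA polymerase I genes and -0.0087 for C/D genes. The comparison was repeated without DMSO replicate 2. It was picked as the array where the members stood highest, so its removal raises DHA minus DMSO on average over the 40. Without it the medians were -0.088 for H/ACA genes, 0.082 for chaperones and scaffolds, 0.029 for processome and 40S genes, -0.013 for 60S genes, 0.021 for RNA polymerase I genes and 0.10 for C/D genes. With limma 0 members and 0 of all genes were then called, and 4 of 40 members had an unadjusted p under 0.05, against 11.0% of all genes.

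**Figure D4:**
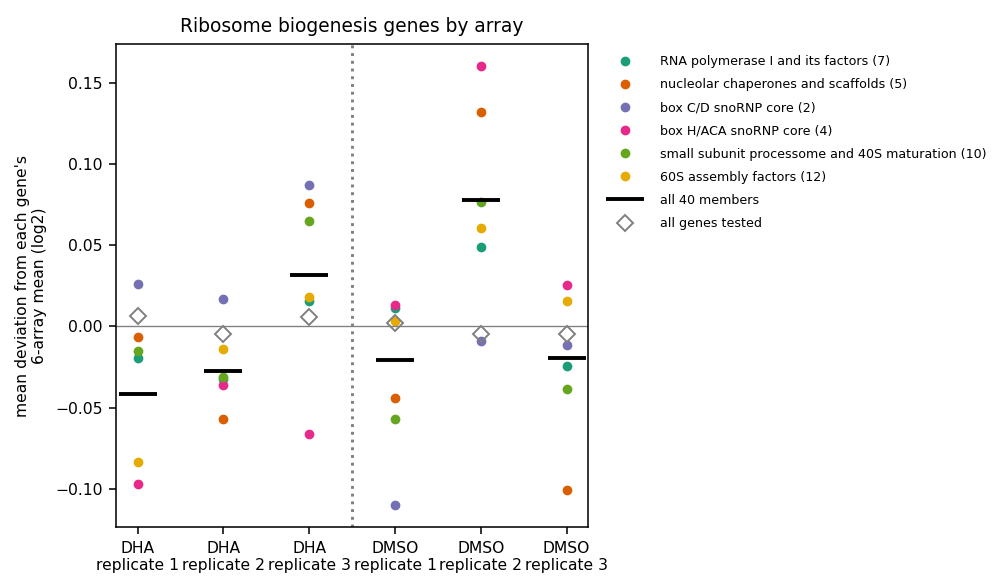
Mean deviation of the ribosome biogenesis genes from each gene's 6-array mean (log2), by array, for the 6 role groups (coloured points, number of genes in brackets), all 40 members (black bars) and all genes tested (open diamonds). The black bar is highest on DMSO replicate 2, at 0.078, and lowest on DHA replicate 1, at -0.041. The diamonds stay near 0, where equalising of the arrays would hold them.

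Features of sequence and position that the rule had not used were counted over the members, with no test. The promoter table used here, drawn from RefSeq, was matched for 36 of the 42 genes, and the earliest listed promoter of each was used. The others were Bop1, Fbl, Gnl2, Rrp12, Npm1 and Tcof1. CACGTG, the E-box that MYC and its partner MAX are known to bind, occurred in 7 of 36 (19.4%), against 9.65% of 12084 promoters of tested genes. It reads the same on both strands. CCGGAA, a core of ETS family sites, occurred in 16 (44.4%), against 24.3%, and GGGCGG, the GC box, in 28 (77.8%), against 58.2%. TATAAA occurred in 3 (8.33%), against 8.40%. Matches were counted on both strands and motifs were allowed to overlap. The median GC content was 58.7% for member promoters and 59.7% for those of tested genes.

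The E-box matches are shown with up to 12 bases on each side, the E-box in capitals, from RefSeq GRCm38.p6 and on the strand of the gene, since they let the fold changes be read by motif. Rrn3 holds a pair, at chr16:13780472-13780501 and chr16:13780639-13780668. Nop2 lies at chr6:125131811-125131840, Pes1 at chr11:3963965-3963994, Wdr43 at chr17:71616220-71616249, Tsr1 at chr11:74898092-74898121 and Mybbp1a at chr11:72441355-72441376, all on the plus strand as Rrn3 is. Utp20 lies at chr10:88826765-88826789 on the minus strand.
Rrn3: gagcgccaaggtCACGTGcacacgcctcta
Rrn3: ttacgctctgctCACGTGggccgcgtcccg
Nop2: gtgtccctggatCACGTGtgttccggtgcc
Pes1: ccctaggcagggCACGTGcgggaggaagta
Wdr43: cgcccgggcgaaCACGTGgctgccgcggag
Tsr1: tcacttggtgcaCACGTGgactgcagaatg
Mybbp1a: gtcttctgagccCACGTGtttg
Utp20: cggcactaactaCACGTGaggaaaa
The 6 measured genes with the match centred on a median of 0.030 on the log2 scale, with 4 above 0, and the 29 without it -0.048, with 9 above 0. The values of the 6 were -0.022 for Rrn3, 0.059 for Nop2, -0.065 for Pes1, 0.066 for Wdr43, 0.019 for Mybbp1a and 0.042 for Utp20. Such a split was not particular to the E-box. The 27 measured genes with the GC box had a median of -0.022, with 12 above 0, and the 8 without it -0.096, with 1 above 0. For the ETS core the medians were -0.022 over 15 genes with it and -0.051 over 20 without. For TATAAA they were -0.11 over 3 with it and -0.024 over 32 without. No test was made of these differences, and a match is no evidence of binding.

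Several members also carry snoRNA genes, which are cut out of introns of their hosts. By RefSeq spans, 8 of 42 members (19.0%) contained at least 1 snoRNA gene, against 1.91% of 13953 tested protein-coding genes. They were Ncl, Nop56, Nop58, Dkc1, Wdr43, Tsr1, Ppan and Gnl3, with 21 snoRNA genes in all. The 7 measured hosts had a median log2 fold change of -0.026 and the 33 measured members without a snoRNA gene -0.030. Of the snoRNAs, 9 had a tested probe set and 0 were called with limma, where the smallest p belonged to Snord19 within Gnl3 (log2 fold change -0.33, limma adjusted p = 0.270). Snora75 within Ncl had -0.29 (limma adjusted p = 0.374), and these were the only 2 of the 9 at an unadjusted p under 0.05. Of all genes, 12% were at that threshold, 6.08% of them lower with DHA when counted over all genes. Snord19 averaged 5.09 with DHA and 5.42 with DMSO, where the filter value was 4.52.

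The rest of the pathway was read from 8 further lists. Of 161 listed genes, 148 were measured and 0 passed the test, with 3 higher and 11 lower at an unadjusted p under 0.05 (9.46%, against 12% of all genes). Their median log2 fold change was -0.029, and 0.015 without DMSO replicate 2. Among 7 other RNA polymerase I genes, Taf1a and Taf1b, which encode subunits of the promoter factor SL1, had 0.26 and 0.15, and Baz2a, which encodes a subunit of a complex that silences ribosomal DNA, had -0.18. None of these 3 passed (limma adjusted p of 0.335, 0.412 and 0.391), and the list median was -0.048. They were the only 3 of the 7 at an unadjusted p under 0.05 (42.9%, against 12% of all genes), 2 higher and 1 lower. Separate groups were seen in the same 3 (42.9%, against 15.8% of all genes). A list of 7 genes is too short to set firmly against those shares.

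RNA polymerase III genes had a median of -0.037 over 20. At an unadjusted p under 0.05 there were 4 (20%, against 12% of all genes), 1 higher and 3 lower. Separate groups were seen in 6 (30%, against 15.8% of all genes), 2 higher and 4 lower. Polr3g, a subunit with a paralogue in Polr3gl, had the lowest p of any listed gene (log2 fold change -0.36, SE 0.079, limma adjusted p = 0.165), followed in its list by Polr3c (0.22) and the transcription factor subunit gene Gtf3c4 (-0.21). Subunits shared by RNA polymerases I, II and III had a median of -0.088 over 4, all below 0, with Polr2e at -0.19, Polr2k at -0.067 and Polr2f at -0.053. The 8 own subunits of RNA polymerase II had a median of -0.0026, with Polr2b at -0.20, Polr2d at -0.22 and Polr2a at 0.087. Of these 8, 1 was at an unadjusted p under 0.05 (12.5%), and of the 4 shared subunits 0.

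The 42 other processome and 40S genes had a median of -0.028 with 1 at an unadjusted p under 0.05, Fcf1 (-0.18), followed by Pwp2 (-0.16) and Nob1 (0.10), the nuclease that finishes the small subunit RNA. The 43 other 60S genes had a median of -0.011, with 0 higher and 4 lower at that threshold (9.3%, against 12% of all genes). Of all genes, 5.94% were higher and 6.08% lower there. Among the 4 were Urb2 (-0.18), Pelp1 (-0.13) and Rsl24d1 (-0.15). The 10 snoRNP assembly genes had a median of -0.084, with Shq1, a chaperone of Dkc1, at -0.15, Rpap3 at -0.23 and Naf1 at -0.10. Shq1 alone of the 10 was at an unadjusted p under 0.05 (10%). The 14 exosome and nuclease genes had a median of 0.022 with 0 at an unadjusted p under 0.05, and the smallest p were those of Exosc2 (0.13), Exosc8 (-0.11) and Eri1 (0.080). No list held a called gene.

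**Figure D5:**
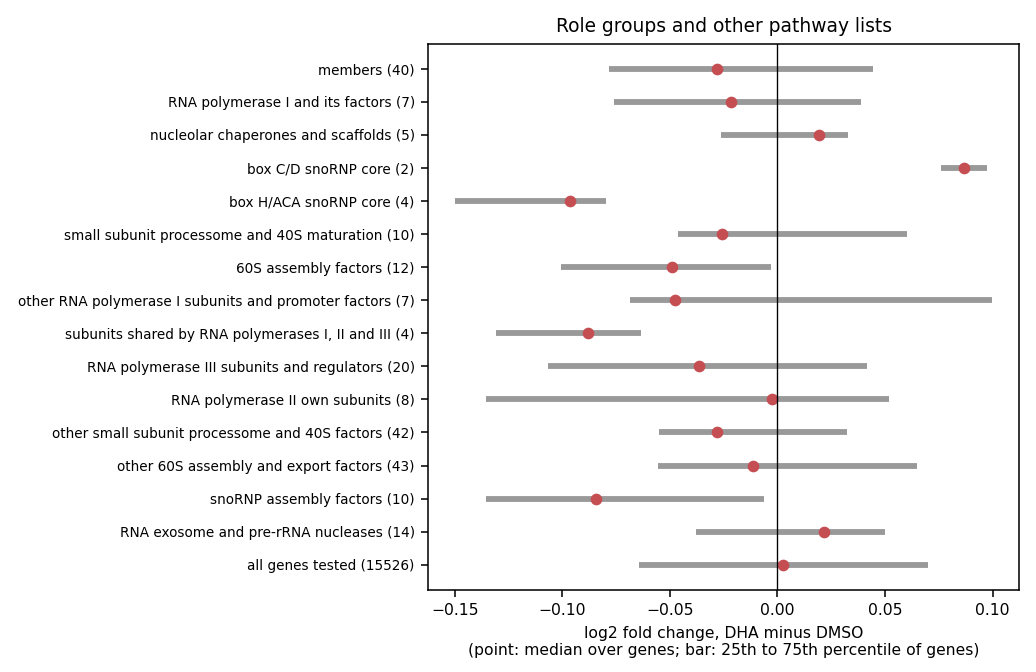
Median log2 fold change, DHA minus DMSO (points), and the 25th to 75th percentile of genes (bars) for the 40 members, their 6 role groups, the 8 other pathway lists and all genes tested, with the number of genes in brackets. Medians run from -0.096 for the H/ACA genes to 0.087 for the C/D genes, with all genes at 0.0027.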

How the data were processed

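Biotin-labelled RNA from 3 DHA and 3 DMSO samples was hybridised to Affymetrix arrays, per the labels' protocols. The authors deposited a log2 intensity for every probe set on each array. RMA (robust multi-array average) and Partek 6.6 are named in the submitters' processing notes, without settings. RMA in its common form equalises the arrays, so a change shared by most transcripts would not appear. No scanner files were used here. The number of arrays limits the precision.

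Of 41345 probe sets, 23521 had 1 gene symbol, 1814 several and 16010 were unnamed here. Symbols were updated through the Entrez identifier to RefSeq (GRCm38.p6), with 23328 matched. For each of 22180 genes the brightest probe set was used, and genes under the 30th percentile (4.52) were left out, which left 15526. Among the members, 4 had more than 1 probe set. DHA was compared with DMSO with limma 3.58.1 in R 4.3.3 (default moderation, two-sided, Benjamini-Hochberg over all genes, residual degrees of freedom 4). Single values also had exact permutation tests. Levels of different probe sets were set against each other to choose a gene's brightest probe set, to place genes against the filter on dim genes and to choose which members to name. The procedure was tested on simulated data, with noise drawn separately for each gene and array. The members varied together by array, so that simulation does not carry over to them as a set. No rate of recovery is given here. Members, lists and role groups were chosen with earlier results of these data known. All members may be named, with values of every array for those at an unadjusted p under 0.05, that of the smallest p in each role group and the highest and lowest probe set. The per-array values of Ncl, Gar1 and Ppan were chosen after their values were seen. From each other list up to 3 genes of smallest p were named. Alternatives covered arrays left out, filters, normalization, probe set choice, moderation, array weights, a title code and the threshold. Protein sequences were not used here.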

Additional observations from a re-analysis of the deposited data

How the results depend on the processing

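No paired analysis was possible because the replicate numbers came from accession order and the groups shared only 1 title code, on DHA replicate 2 and DMSO replicate 3. In none of 640 combinations of a member and an alternative setting did a member pass the test, and the lowest adjusted p was 0.136 (limma). The count of members called was 0 under every alternative, threshold 0.1 included. Members at an unadjusted p under 0.05 numbered 3 to 6 of 40 on leaving out an array, with 3 without DHA replicate 1, and 2 without both arrays of the title code. The shares of all genes at that threshold were 8.73% to 12.1% on leaving out an array, with 8.73% without DHA replicate 1. Without both arrays of the title code the share was 10.1%. The count over all genes, 14, ranged from 0 to 24 on leaving out an array (24 without DHA replicate 2, and 0 for each other array, with 1356 to 1710 genes at an unadjusted p under 0.05 there). Quantile normalization gave 63, trend and robust moderation 62, keeping genes above the 50th percentile 62, centring arrays on their medians 52 and leaving the filter off 5. It was 41 with a term for the title code, 0 without both its arrays (1569 at an unadjusted p under 0.05) and 80 at an adjusted p of 0.1. The cause was not tested, beyond fewer genes or samples where the setting has them.

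The member median ranged from -0.054 to 0.020 on leaving out an array. List medians that moved by more than their spread between arrays ranged from -0.16 to -0.084 for H/ACA, -0.048 to 0.021 for RNA polymerase I, -0.054 to 0.0060 for other RNA polymerase I and -0.063 to 0.0069 for RNA polymerase III genes. The RNA polymerase III median was 0.0041 without both title code arrays. The C/D median was 0.022 with the mean of the probe sets and -0.032 with the probe set of highest variance, and that of shared subunits -0.13 with the latter. Signs changed for 17 members on leaving out an array and for 7 under other settings, and held for 22. Ranges were -0.048 to 0.023 for Rrn3, -0.0071 to 0.039 for Tcof1, -0.082 to 0.082 for Ncl, -0.022 to 0.14 for Npm1, -0.058 to 0.085 for Mybbp1a, -0.076 to 0.018 for Ddx21, -0.19 to 0.072 for Gar1, -0.089 to 0.052 for Utp15, -0.015 to 0.090 for Utp20, -0.050 to 0.0044 for Noc4l, -0.077 to 0.0061 for Rrp12, -0.055 to 0.0076 for Bop1, -0.0031 to 0.10 for Nop2, -0.022 to 0.033 for Noc2l, -0.079 to 0.055 for Noc3l, -0.064 to 0.065 for Gnl2 and -0.14 to 0.0051 for Gnl3. Other changes were Ncl (0.0030) and Gnl2 (0.013) with array weights, Gnl2 (8.5e-05) after quantile normalization, Ddx21 (0.0097) and Nop56 (-0.022) with the mean of the probe sets, Ddx21 (0.056) and Nop56 (-0.13) with the probe set of highest variance, and Npm1 (-0.0034), Mybbp1a (-0.0053) and Noc2l (-0.0032) without both title code arrays.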

Other observations

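The members left out by the rule were measured on probe sets that the annotation also pairs with another gene, so a value cannot be given to either gene. The probe set of Fbl and Tulp4 measured 10.64, 10.36 and 10.76 with DHA, against 10.79, 10.97 and 10.64 with DMSO, and the groups overlapped (difference -0.22 on the log2 scale; exact two-sided permutation p = 0.2, n = 3 per group). The probe set of Tsr1 and Srr measured 9.48, 9.55 and 9.80 with DHA, against 9.60, 9.80 and 9.69 with DMSO (difference -0.089; exact two-sided permutation p = 0.4, n = 3 per group).

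Second probe sets of members also stayed small in their differences. The dimmer Npm1 probe set had a log2 difference of 0.057 and the dimmer Ddx21 probe set 0.056, where the brighter Ddx21 probe set had -0.037.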
